A study of Mus musculus with 36 samples.

Results

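The last step of an in vitro macrophage differentiation, day 7 set against day 5, was followed by RNA-seq in haematopoietic stem and progenitor cells from the bone marrow of mice with a knockout of Taf1. The step was represented by 6 of the study's 36 libraries, chosen by their labels: 3 from Taf1 KO cells at day 7 of the macrophage culture (KO day 7) and 3 from Taf1 KO cells at day 5 (KO day 5). Cells of both genotypes were grown for 3 days with stem cell factor (SCF) and IL-3 in medium with horse serum. One portion then received M-CSF together with GM-CSF for 2 days, followed by 2 days in which M-CSF was the single cytokine, each at 50 ng/ml, so GM-CSF was in the medium before day 5 and absent between day 5 and day 7. The comparators were 3 wild-type libraries each at day 7 and day 5 of the macrophage culture (control), and 3 Taf1 KO libraries each at day 7 and day 5 of the granulocyte culture, which received SCF, IL-3 and G-CSF and then G-CSF alone. The knockout is a conditional mouse model per the study's design text. How and when deletion was induced, which part of Taf1 was removed, and whether libraries of a group came from separate mice are not stated in the sources used here, so the p-values reflect library-to-library spread, which may be technical.

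Macrophages grow and survive through the M-CSF receptor Csf1r. On the way there, progenitors switch on phagocytic receptors, lysosomal enzymes and lipid-transport proteins and lose the granule genes of the neutrophil branch. GM-CSF acts through a separate receptor and the transcription factor STAT5, and in the same progenitors favours dendritic-cell chemokines. TFIID, of which Taf1 is the biggest subunit, binds core promoters and starts the assembly of RNA polymerase II there.

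The targeted gene, Taf1 (chromosome X, 101532734 to 101601789, plus strand of mm10), had 6.76, 7.23 and 7.57 TPM at KO day 7, against 6.15, 6.23 and 5.94 TPM at KO day 5. It averaged 13.2 ± 0.35 TPM at control day 7 and 13.1 ± 0.622 TPM at control day 5 (SD, n = 3 each), above each knockout library on both days. Within the knockout the log2 difference was 0.20 ± 0.08 (adjusted p = 0.0291). It did not pass without KO day 7 replicate 2 (adjusted p = 0.0691) or 3 (0.111) or without KO day 5 replicate 1 (0.0538) or 3 (0.0849), and it turned to -0.18 (adjusted p = 0.0216) after a second scaling of the libraries described next. Since the deleted part is not stated, reads from outside it may enter these values.

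All values are TPM, a length-corrected share of a library's transcripts that sums to the same total in each library and carries no depth. Differences are on log2(TPM + 1), ± SE, tested with limma over all genes that reached 1 TPM in at least 3 of 24 libraries. Of 11953 genes tested, 6940 were higher at KO day 7 (58.1%) and 1023 were lower (8.56%), or 66.6% in either direction, at an adjusted p under 0.05. The median of all genes was 0.37. Groups did not overlap for 64.8% of genes with all day 7 libraries higher and for 11% with all lower. S100a8 with S100a9, the subunits of the neutrophil protein calprotectin, took 2.68% to 3.94% of the TPM at KO day 7 and 17.8% to 23.4% at KO day 5. With a scaling that sets the median ratio between libraries to 1 (median of ratios), 3206 genes were higher at KO day 7 (26.9%) and 2872 lower (24.1%), 51% in all, with a median of -0.002. Counts for gene groups are therefore given on the deposited values and then "after the scaling". Each such count is to be read against these shares of all genes. Knockout replicate 1 stood apart from replicates 2 and 3 on both days, with Pearson's r across genes of 0.987 to 0.988 against 0.995 to 0.996. Without it on both days, 6678 genes were higher and 851 lower.

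**Figure D1:**
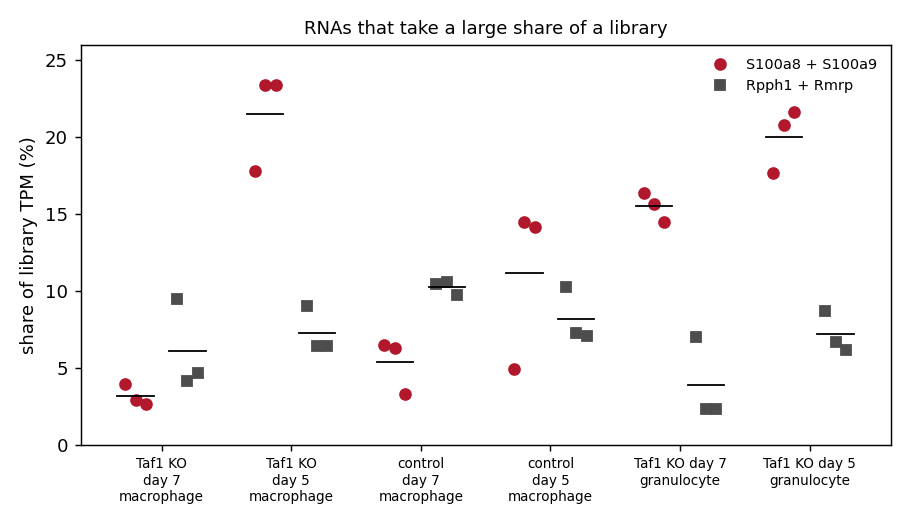
Share of each library's TPM, in percent, taken by S100a8 with S100a9 (circles) and by the structural RNAs Rpph1 with Rmrp (squares), for the macrophage and granulocyte cultures; each point is a library and the black line is the mean of 3. The calprotectin genes took 2.68% to 3.94% at KO day 7 of the macrophage culture, below the 17.8% to 23.4% at KO day 5 and the 14.5% to 16.3% at day 7 of the KO granulocyte culture.

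Macrophage genes were high at KO day 7, as the culture's label states. Of 29 listed macrophage identity genes 25 were tested, 21 rose and 1 fell (20 rose and 3 fell after the scaling), with a median log2 difference of 2.07 against 0.37 over all genes. Csf1r had 225, 249.7 and 234 TPM at KO day 7, against 30.03, 34.9 and 35.5 TPM at KO day 5. The log2 difference was 2.78 ± 0.11 (adjusted p = 1.66e-13), and the libraries of the 2 days did not overlap. Adgre1, which encodes the macrophage surface marker F4/80, had 309.9, 256 and 272 TPM at KO day 7, against 44.8, 44.5 and 46.6 TPM at KO day 5, a difference of 2.59 ± 0.15 (adjusted p = 3.52e-11). Lyz2, lysozyme, was among the most abundant messages with 20519.8, 34946 and 33048 TPM at KO day 7, against 2415, 6379.7 and 5539 TPM at KO day 5, a difference of 2.71 ± 0.28 (adjusted p = 8.03e-08), and replicate 1 was the lowest library on both days. The high-affinity IgG receptor Fcgr1 (2.07), the mannose receptor Mrc1 (1.62) and the fractalkine receptor Cx3cr1 (2.31) rose as well. Pparg, a nuclear receptor of alveolar macrophages named here after its values were seen, was the 1 member that fell. Timd4, a marker of tissue-resident macrophages, was at 0 in all 6 libraries.

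The transcription factor genes Maf and Irf8 rose, while the gene of the early myeloid factor PU.1 did not. Maf, a late macrophage factor, had 25.04, 25.7 and 22.6 TPM at KO day 7, against 2.10, 2.29 and 2.29 TPM at KO day 5, a difference of 2.98 ± 0.12 (adjusted p = 1.79e-13). Irf8, needed for monocyte commitment, rose by 1.58 with 70.8, 62.1 and 58.3 TPM at KO day 7, against 18.6, 23.8 and 19.7 TPM at KO day 5. The libraries of the 2 days did not overlap for either gene. Spi1, which encodes PU.1, had 216, 209 and 215 TPM at KO day 7, against 209, 225 and 241 TPM at KO day 5, with overlapping libraries and a difference of -0.07 ± 0.09 (adjusted p = 0.508), and was lower after the scaling at -0.51 (adjusted p = 0.000877). Of 21 monocyte and macrophage factors tested, 14 rose and 3 fell (11 rose and 5 fell after the scaling). The corresponding shares of all genes were 58.1% and 8.56% (26.9% and 24.1% after the scaling).

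Several genes for the recognition and uptake of dying cells rose. Gas6, the bridging ligand that links phosphatidylserine to TAM receptor kinases, had 55.8, 66.6 and 58.1 TPM at KO day 7, against 0.56, 1.14 and 0.86 TPM at KO day 5, a difference of 5.05 ± 0.31 (adjusted p = 6.07e-11). Its receptor Mertk had 29.2, 32.4 and 33.1 TPM at KO day 7, against 3.24, 4.45 and 4.92 TPM at KO day 5, a difference of 2.66 ± 0.17 (adjusted p = 1.11e-10). Axl, the related receptor, had 5.39, 5.87 and 3.99 TPM at KO day 7, against 6.65, 5.93 and 6.95 TPM at KO day 5 and did not pass (-0.31 ± 0.18, adjusted p = 0.127), but was lower after the scaling at -0.69 (adjusted p = 0.00276). The ligand and Mertk were higher in every KO day 7 library than in any KO day 5 library. C1qb, a chain of the complement starter C1q, had 71.02, 31.4 and 29.5 TPM at KO day 7, against 1.22, 0.89 and 1.36 TPM at KO day 5, a difference of 4.27 ± 0.32 (adjusted p = 7.82e-10). C1qc, a further chain, had 87.4, 47.8 and 35.3 TPM at KO day 7, against 2.02, 1.26 and 1.31 TPM at KO day 5, a difference of 4.43 ± 0.33 (adjusted p = 6.8e-10). For both chains replicate 1 was the highest library at KO day 7. C3ar1, the receptor for the C3a fragment, had 106, 115 and 114 TPM at KO day 7, against 11.9, 12.2 and 12.7 TPM at KO day 5, a difference of 3.09 ± 0.12 (adjusted p = 1.79e-13). Of 9 complement genes tested of 11 listed, 6 rose and 1 fell (5 rose and 2 fell after the scaling). On deposited values the share that rose was near the 58.1% of all genes (26.9% after the scaling). The complement gene that fell was C3, the central complement protein, named after its values were seen.

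**Figure D2:**
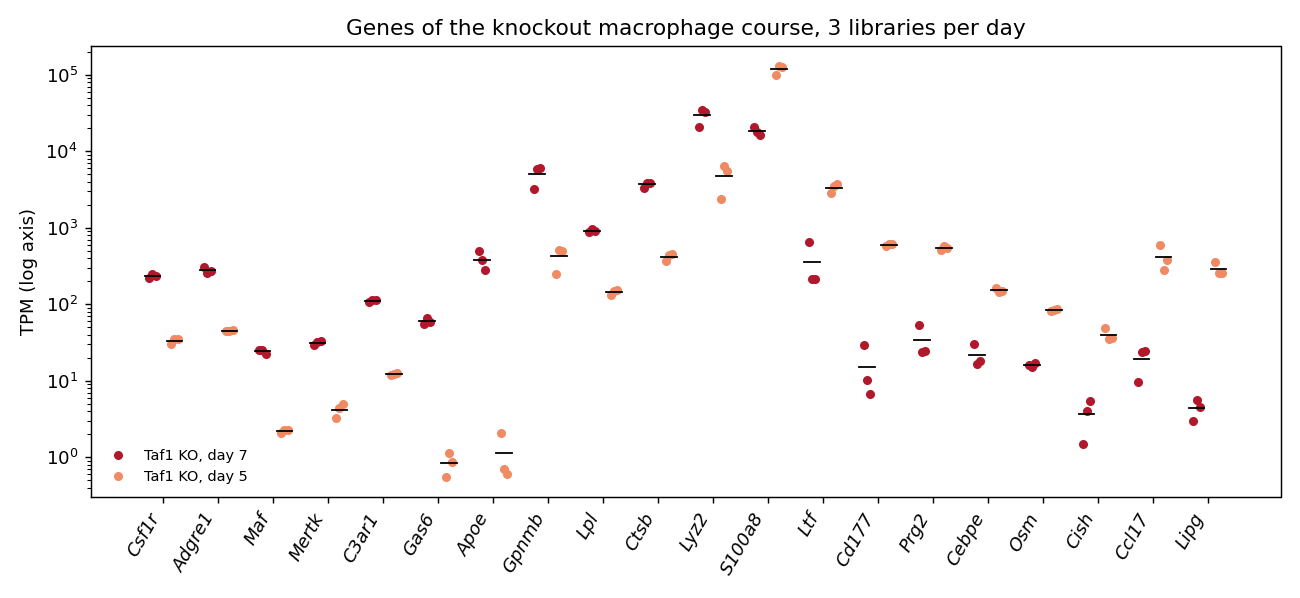
TPM of 20 genes (logarithmic axis) in the 3 KO day 7 libraries (dark red, left of each pair) and the 3 KO day 5 libraries (orange, right); each point is a library and the black line the mean. Macrophage, lipid and lysosome genes from Csf1r to Lyz2 lie higher at KO day 7, and the genes from S100a8 to Lipg lie lower, with no overlap of the libraries for any of the 20.

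Lipid-handling genes rose as a group. Of 20 tested, 18 rose and 0 fell (18 rose and 0 fell after the scaling), with a median of 2.47 against 0.37 over all genes. Apoe (chromosome 7, 19696109 to 19699188, minus strand), the apolipoprotein by which macrophages export cholesterol, showed the largest rise of the step with 492, 381 and 284 TPM at KO day 7, against 2.08, 0.70 and 0.60 TPM at KO day 5. The difference was 7.54 ± 0.48 (adjusted p = 7.77e-11), and replicate 1 was the highest library on both days. Apoc2, the cofactor of lipoprotein lipase, had 31.4, 28.9 and 25.6 TPM at KO day 7, against 0.90, 1.97 and 1.79 TPM at KO day 5, a difference of 3.56 ± 0.19 (adjusted p = 8.11e-12). Lpl, lipoprotein lipase itself, had 892, 963 and 909 TPM at KO day 7, against 131, 148 and 155 TPM at KO day 5, a difference of 2.67 ± 0.19 (adjusted p = 3.01e-10). Both the enzyme and its cofactor were therefore higher, whereas the endothelial lipase gene Lipg had 2.99, 5.70 and 4.56 TPM at KO day 7, against 360.2, 255 and 260.4 TPM at KO day 5 (-5.77 ± 0.25, adjusted p = 5.68e-13), the largest fall with all libraries on the log2(TPM + 1) scale. Without replicate 1 on both days it was at -5.41, and Cd177 was at -6.05. Gpnmb, a glycoprotein of lipid-laden macrophages, had 3234, 5802 and 6039.6 TPM at KO day 7, against 253, 510.0 and 505 TPM at KO day 5, a difference of 3.59 ± 0.26 (adjusted p = 4.18e-10). The fatty acid carrier Fabp4 rose less, by 1.27. Fdps, of the cholesterol synthesis branch, fell to 84.9, 91.9 and 91.5 TPM at KO day 7, against 260.3, 348 and 346 TPM at KO day 5 (-1.81 ± 0.26, adjusted p = 4.79e-06). Of 24 cholesterol synthesis genes tested 3 rose and 2 fell (0 rose and 7 fell after the scaling), and 4 fell with the replicate number as a block.

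Lysosomal genes rose together. Of 33 hydrolases and membrane proteins tested, 31 rose and none fell (29 rose and 0 fell after the scaling), and of 15 genes of the cathepsin list 12 rose and 2 fell, with the same numbers after the scaling. The pair that fell, Ctsc and Ctsg, are a granule-protease activator and a neutrophil granule protease, and were named after their values were seen. Ctsb, a cysteine protease, had 3341, 3839 and 3898 TPM at KO day 7, against 366, 446 and 449 TPM at KO day 5, a difference of 3.13 ± 0.17 (adjusted p = 1.35e-11). Ctsl, a protease of the same kind, had 2907, 3436 and 3771 TPM at KO day 7, against 563, 438 and 491 TPM at KO day 5, a difference of 2.76 ± 0.21 (adjusted p = 8.25e-10). Ctss had 1976, 2180.2 and 2127 TPM at KO day 7, against 373, 384 and 379 TPM at KO day 5, a difference of 2.46 ± 0.19 (adjusted p = 1.43e-09). For these 3 proteases the lowest day 7 library was above the highest day 5 library. Lipa, the acid lipase that frees cholesterol from ingested esters, had 749.8, 821 and 788 TPM at KO day 7, against 93.2, 119 and 117 TPM at KO day 5, a difference of 2.84 ± 0.14 (adjusted p = 4.35e-12). Npc2 (1.66), which hands that cholesterol on, and Hexa (1.83), a ganglioside hydrolase, followed. Sgsh, a heparan sulfate hydrolase, had 21.03, 26.8 and 24.6 TPM at KO day 7, against 3.18, 4.10 and 3.73 TPM at KO day 5, a difference of 2.43 ± 0.16 (adjusted p = 1.89e-10).

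Many lysosomal promoters carry the motif TCACGTG, an E-box of the CLEAR type bound by TFEB and TFE3. The 250 bases before each RefSeq start (GRCm38.p6, the build also called mm10) were searched on both strands. A gene with several starts counted if any of its windows held the motif. It was found for 7 of 25 lysosomal genes with a promoter entry (28%) and 3 of 12 cathepsins (25%). The share was 5.91% of the 9120 genes tested that had an entry and 3.58% of all 27025 genes with an entry. The Sgsh promoter (chr11:119355511-119355760, minus strand) is printed 5′ to 3′ as an example, with the motif, here on the opposite strand as CACGTGA and 29 bases before the start, in capitals.
Sgsh: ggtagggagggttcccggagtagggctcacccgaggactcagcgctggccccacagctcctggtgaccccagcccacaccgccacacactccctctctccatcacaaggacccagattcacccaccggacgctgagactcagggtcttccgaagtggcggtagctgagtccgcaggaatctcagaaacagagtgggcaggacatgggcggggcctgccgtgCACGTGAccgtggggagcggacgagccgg
A match describes letters in this window and not a bound site.

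Iron handling and the antioxidant response were higher too. Of 16 iron and metallothionein genes tested of 19 listed, 14 rose and 0 fell, with the same numbers after the scaling. Slc11a1, the phagosomal metal pump, had 57.8, 97.7 and 97.5 TPM at KO day 7, against 9.39, 14.2 and 10.9 TPM at KO day 5, a difference of 2.75 ± 0.20 (adjusted p = 3.21e-10), and was lowest in replicate 1 on both days. Steap3 (2.12), a ferrireductase, and Slc48a1 (1.34), a haem exporter of the phagolysosome, rose as well. Of 24 genes of the NRF2 response 18 rose and 2 fell (12 rose and 5 fell after the scaling). Among all genes 58.1% rose and 8.56% fell (26.9% and 24.1% after the scaling). Prdx1, a peroxiredoxin, had 2049.8, 3127 and 3301 TPM at KO day 7, against 555, 694 and 676 TPM at KO day 5, a difference of 2.11 ± 0.14 (adjusted p = 1.33e-10). Srxn1, which reactivates peroxiredoxins, had 127, 179 and 191 TPM at KO day 7, against 30.1, 35.5 and 35.1 TPM at KO day 5, a difference of 2.25 ± 0.13 (adjusted p = 2.51e-11). Replicate 1 was the lowest library of both genes on both days.

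The response to type I interferon was higher at KO day 7. Of 47 tested of 49 listed genes 42 rose and 2 fell (39 rose and 3 fell after the scaling), with a median of 1.56 against 0.37 over all genes. The pair that fell, Zbp1 and Slfn1, was named after its values were seen. Ifit3 (chromosome 19, 34583531 to 34588731, plus strand), which binds foreign RNA together with its relatives, had 18.1, 29.4 and 14.2 TPM at KO day 7, against 0.30, 1.04 and 0.49 TPM at KO day 5, a difference of 3.71 ± 0.18 (adjusted p = 2.95e-12). Its neighbour Ifit3b (chromosome 19, 34607970 to 34613401, plus strand) had 6.33, 12.8 and 6.09 TPM at KO day 7, against 0.070, 0.51 and 0.42 TPM at KO day 5, a difference of 2.76 ± 0.17 (adjusted p = 4.43e-11). In both, replicate 2 was the highest library on each day. The pair is nearly identical in sequence, so how the authors' counting divided reads between them is uncertain. Ifi204, a DNA-sensing protein of the p200 family, had 59.05, 74.7 and 58.7 TPM at KO day 7, against 4.92, 5.75 and 5.19 TPM at KO day 5, a difference of 3.37 ± 0.17 (adjusted p = 4.35e-12). Slfn5, of the schlafen family, had 22.1, 29.8 and 18.8 TPM at KO day 7, against 1.31, 3.00 and 2.52 TPM at KO day 5, a difference of 2.92 ± 0.17 (adjusted p = 3.53e-11). The ubiquitin-like modifier Isg15 had 19.3, 22.8 and 12.5 TPM at KO day 7, against 4.08, 2.91 and 3.60 TPM at KO day 5, a difference of 2.05 ± 0.22 (adjusted p = 1.27e-07). The libraries of the 2 days did not overlap for any of these 5 genes.

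Promoters of interferon-stimulated genes are known for repeats of GAAA, to which interferon-activated factors bind. A core of GAAA, any 2 bases and GAAA again was searched on both strands and found in the 250 upstream bases of 20 of 35 interferon-response genes with an entry (57.1%), against 3.39% of the genes tested and 3.46% of all genes in the table. Its share was 5.81% among genes higher by at least 2-fold on this scale and 5.02% among those lower by at least 2-fold. The windows of Ifit3, Ifit3b, Isg15 and B2m are printed 5′ to 3′ because these genes are described by value here and hold the core, with matches on either strand in capitals.
Ifit3: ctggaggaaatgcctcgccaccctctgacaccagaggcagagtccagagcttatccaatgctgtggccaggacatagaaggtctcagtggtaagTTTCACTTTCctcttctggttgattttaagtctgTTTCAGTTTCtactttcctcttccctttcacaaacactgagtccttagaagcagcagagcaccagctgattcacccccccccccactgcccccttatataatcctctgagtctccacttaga
Ifit3b: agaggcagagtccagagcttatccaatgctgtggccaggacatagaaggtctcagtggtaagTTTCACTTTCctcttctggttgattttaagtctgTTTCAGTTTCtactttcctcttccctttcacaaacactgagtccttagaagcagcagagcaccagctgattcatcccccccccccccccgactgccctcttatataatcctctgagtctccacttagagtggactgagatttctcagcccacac
Isg15: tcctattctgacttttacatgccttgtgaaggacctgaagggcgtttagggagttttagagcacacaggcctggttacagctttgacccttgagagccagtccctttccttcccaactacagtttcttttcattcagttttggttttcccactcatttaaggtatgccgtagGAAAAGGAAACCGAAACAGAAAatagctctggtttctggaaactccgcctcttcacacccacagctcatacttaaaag
B2m: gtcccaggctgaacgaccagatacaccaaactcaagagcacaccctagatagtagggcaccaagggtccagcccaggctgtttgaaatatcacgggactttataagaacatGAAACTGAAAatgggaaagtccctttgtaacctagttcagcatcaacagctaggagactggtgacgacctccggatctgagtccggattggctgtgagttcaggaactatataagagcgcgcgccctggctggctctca
They lie at chr19:34583279-34583528 (plus strand), chr19:34607707-34607956 (plus), chr4:156200819-156201068 (minus) and chr2:122147437-122147686 (plus). Ifit3 and Ifit3b each held 2 matches on the opposite strand, beginning 156 and 122 bases before the start in Ifit3 and 188 and 154 in Ifit3b, and the windows of the pair share an unbroken run of 169 bases. Isg15 held 3 overlapping matches beginning 78, 72 and 66 bases before its start, and B2m 1 match at 139 bases.

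Antigen presentation on MHC class I moved in the same direction. B2m, the invariant light chain, had 1788, 2099 and 2037 TPM at KO day 7, against 759.7, 823 and 773 TPM at KO day 5, a difference of 1.33 ± 0.09 (adjusted p = 2.5e-10). Of 16 class I and immunoproteasome genes tested 15 rose and none fell (9 rose and 0 fell after the scaling). Class II genes did not share this. Of 10 tested 2 rose and 2 fell (0 rose and 4 fell after the scaling). Cd74, the invariant chain, had 189.6, 254 and 307 TPM at KO day 7, against 282, 372 and 382 TPM at KO day 5, overlapping between days (-0.48 ± 0.44, adjusted p = 0.348). H2-Oa, part of a class II peptide-loading modulator, fell to 3.14, 2.72 and 3.02 TPM at KO day 7, against 7.38, 4.56 and 5.20 TPM at KO day 5 (-0.74 ± 0.14, adjusted p = 0.000133).

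**Figure D3:**
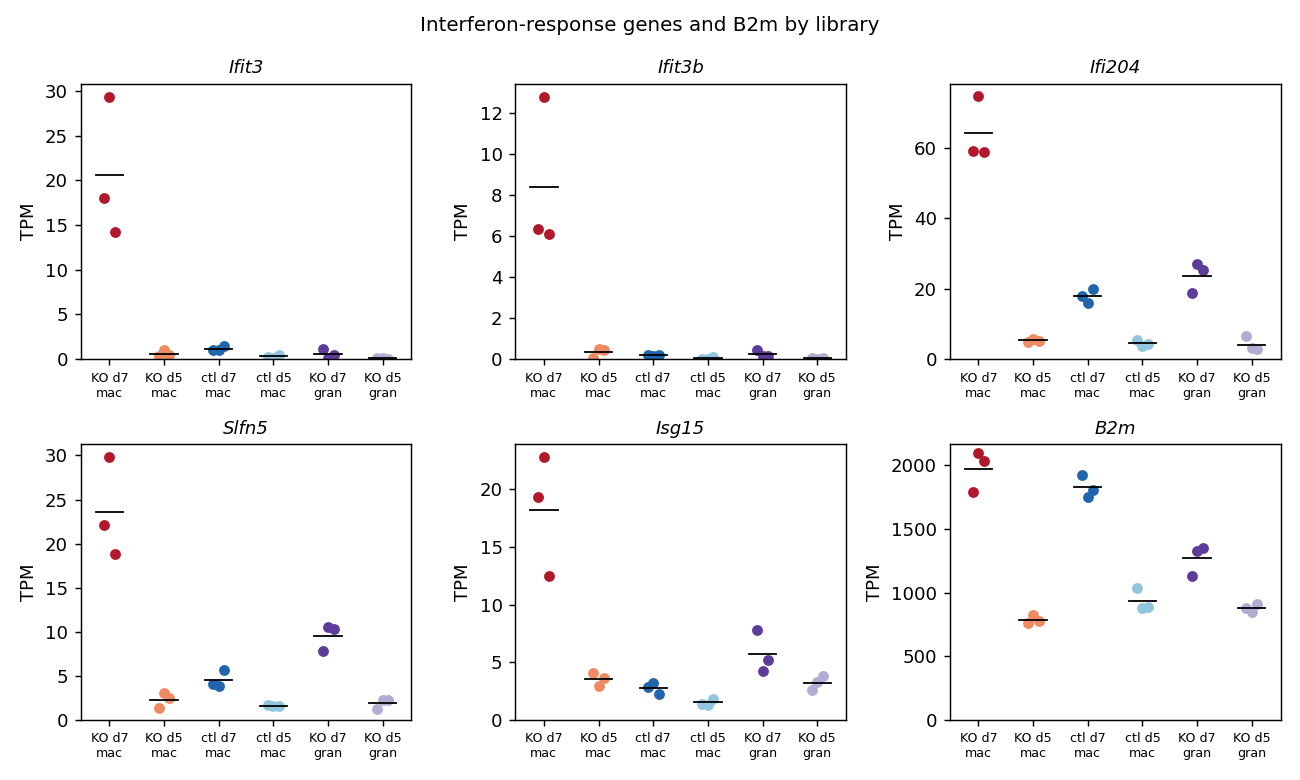
TPM of 5 interferon-response genes and B2m by library in the KO and control (ctl) macrophage cultures (mac) and the KO granulocyte culture (gran), day 7 left of day 5 in each; points are libraries and black lines means of 3. The KO day 7 macrophage libraries lie above all others for the 5 interferon-response genes, with Ifit3 at 14.2 to 29.4 TPM, whereas B2m is also high at control day 7.

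Targets of GM-CSF signalling were mostly lower at KO day 7. Of 24 genes tested that GM-CSF, IL-3 or STAT5 are known to induce, 15 fell and 5 rose (2 rose and 17 fell after the scaling), while 8.56% of all genes fell. Cish, a STAT5-induced feedback inhibitor, had 1.50, 4.08 and 5.48 TPM at KO day 7, against 48.8, 35.2 and 36.4 TPM at KO day 5, a difference of -3.23 ± 0.23 (adjusted p = 3.77e-10). Socs1, an inhibitor of the same kind, had 4.68, 5.33 and 5.77 TPM at KO day 7, against 30.1, 23.9 and 25.3 TPM at KO day 5, a difference of -2.13 ± 0.14 (adjusted p = 1.2e-10). Osm, the cytokine oncostatin M, had 16.3, 15.3 and 16.98 TPM at KO day 7, against 81.3, 84.6 and 88.2 TPM at KO day 5, a difference of -2.32 ± 0.14 (adjusted p = 5.52e-11). All 3 were low in each day 7 library. Ccl17, a chemokine that dendritic cells make under GM-CSF, had 9.75, 23.9 and 24.6 TPM at KO day 7, against 591, 281 and 375 TPM at KO day 5, a difference of -4.39 ± 0.35 (adjusted p = 2.13e-09). Ccl22, a chemokine for the same receptor, had 9.95, 15.7 and 21.9 TPM at KO day 7, against 48.3, 32.5 and 41.97 TPM at KO day 5, a difference of -1.36 ± 0.25 (adjusted p = 8.2e-05). In both, replicate 1 was lowest at KO day 7 and highest at KO day 5. The GM-CSF receptor chains were not among the genes that fell. Csf2ra, the ligand-binding chain, had 31.9, 42.4 and 46.1 TPM at KO day 7, against 25.8, 24.99 and 25.1 TPM at KO day 5 (0.63 ± 0.19 (adjusted p = 0.00548), but 0.20 (adjusted p = 0.41) after the scaling). Csf2rb, the shared signalling chain, had 152, 382 and 417 TPM at KO day 7, against 164, 210.0 and 227 TPM at KO day 5, with replicate 1 below the other day 7 libraries. Its difference of 0.54 ± 0.25 (adjusted p = 0.0636) did not pass with all libraries. It passed with the replicate number as a block (adjusted p = 0.026), without replicate 1 at KO day 7 (1.004, adjusted p = 3.49e-05) and without replicate 1 on both days (0.87, adjusted p = 0.000259). Of 18 dendritic-cell genes tested 8 rose and 5 fell (8 rose and 7 fell after the scaling).

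Other surface and secreted proteins differed between the days. Ly6c2, the marker of inflammatory monocytes, fell to 255, 92.4 and 87.6 TPM at KO day 7, against 505, 820.4 and 789.7 TPM at KO day 5 (-2.43 ± 0.35, adjusted p = 5.96e-06), with replicate 1 highest at day 7 and lowest at day 5. Il18, a cytokine that the inflammasome processes, had 12.7, 12.96 and 12.1 TPM at KO day 7, against 1.39, 1.53 and 1.31 TPM at KO day 5 (2.49 ± 0.14, adjusted p = 1.35e-11). Tlr1, a receptor for bacterial lipopeptides, had 8.13, 7.08 and 6.04 TPM at KO day 7, against 0.64, 0.81 and 0.94 TPM at KO day 5 (2.16 ± 0.15, adjusted p = 3.22e-10). Of 16 Toll-like receptors and adaptors 12 rose and 1 fell (9 rose and 3 fell after the scaling). Inflammatory cytokine and feedback genes, the list of Il18, were mixed, with 5 higher and 7 lower of 19 tested (3 rose and 9 fell after the scaling). C-type lectin receptors were mixed too, with 6 higher and 4 lower of 14 tested (5 rose and 5 fell after the scaling). Among all genes 58.1% rose and 8.56% fell (26.9% and 24.1% after the scaling). Clec4d, a lectin that senses mycobacterial lipid, had 209.5, 432 and 435 TPM at KO day 7, against 31.4, 75.2 and 70.2 TPM at KO day 5 (2.61 ± 0.27, adjusted p = 5.91e-08). Il7r, better known from lymphocytes, had 26.01, 43.6 and 42.5 TPM at KO day 7, against 4.81, 6.21 and 6.20 TPM at KO day 5 (2.48 ± 0.21, adjusted p = 4.05e-09). The adaptor Blnk, also known from lymphocytes, had 25.8, 23.8 and 24.4 TPM at KO day 7, against 1.83, 2.18 and 2.50 TPM at KO day 5 (3.02 ± 0.20, adjusted p = 1.54e-10). Kitl, which encodes SCF, had 4.18, 3.55 and 2.94 TPM at KO day 7, against 0.080, 0.060 and 0.11 TPM at KO day 5 (2.06 ± 0.14, adjusted p = 2.08e-10). Each of these genes had all day 7 libraries above all day 5 libraries except Ly6c2, which had them below. Immediate-early and MAPK-response genes were mixed, with 9 higher and 5 lower of 25 tested (5 rose and 7 fell after the scaling), and 2 lower without replicate 1 on both days. The share that rose was below the 58.1% of all genes. Atf3 (2.10) and Dusp4 (1.93) rose and Ier3 (-1.31) fell.

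Neutrophil granule genes were lower at KO day 7. Of 16 secondary and tertiary granule genes 12 fell and 2 rose (1 rose and 13 fell after the scaling), of 9 primary granule genes 7 fell and 1 rose (1 rose and 7 fell after the scaling), and of 19 neutrophil receptors and late genes 11 fell and 2 rose (2 rose and 12 fell after the scaling). Lyz2, which macrophages also express, and Anxa1 are the 2 secondary and tertiary granule genes that rose. In bulk samples fewer cells of a type and less RNA per cell cannot be told apart. S100a8 had 20745, 18024 and 16500.5 TPM at KO day 7, against 100193, 128565 and 126969.5 TPM at KO day 5, a difference of -2.68 ± 0.46 (adjusted p = 3.75e-05). S100a9 had 18650.0, 11104 and 10255 TPM at KO day 7, against 77679, 104992 and 106848 TPM at KO day 5, a difference of -2.89 ± 0.51 (adjusted p = 5.5e-05). Lactoferrin (Ltf) had 654, 216 and 213 TPM at KO day 7, against 2846, 3482 and 3708 TPM at KO day 5, a difference of -3.41 ± 0.82 (adjusted p = 0.00109). The KO day 7 libraries were thus not free of neutrophil messages, and replicate 1 held the most of these 3. Cd177 (chromosome 7, 24743983 to 24760311, minus strand), a neutrophil surface protein, had 29.1, 10.2 and 6.69 TPM at KO day 7, against 575, 622 and 606 TPM at KO day 5, a difference of -5.45 ± 0.53 (adjusted p = 2.54e-08). The antimicrobial peptide gene Camp had 77.8, 11.2 and 13.2 TPM at KO day 7, against 172, 91.8 and 87.7 TPM at KO day 5, and its difference of -2.23 ± 0.76 (adjusted p = 0.0137) no longer passed without KO day 7 replicate 2 (adjusted p = 0.0772) or 3 (0.0653) or without KO day 5 replicate 1 (0.0557). Mpo, myeloperoxidase, had 320.4, 99.5 and 113 TPM at KO day 7, against 302, 182 and 202 TPM at KO day 5, overlapping between days (-0.54 ± 0.43, adjusted p = 0.28), and was at -1.07 (adjusted p = 0.0295) without KO day 7 replicate 1.

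Further genes of this branch fell. Cebpe, the factor that drives secondary granule genes, had 30.7, 16.4 and 18.04 TPM at KO day 7, against 162, 147 and 149.7 TPM at KO day 5, a difference of -2.81 ± 0.30 (adjusted p = 8.6e-08). Olfm4, a granule glycoprotein, had 13.8, 7.42 and 7.79 TPM at KO day 7, against 66.6, 174 and 181 TPM at KO day 5 (-3.65 ± 0.37, adjusted p = 5.57e-08), and Ifitm6 had 74.96, 36.8 and 26.6 TPM at KO day 7, against 564, 844 and 725 TPM at KO day 5 (-4.03 ± 0.40, adjusted p = 3.37e-08). Both were low in all day 7 libraries and lower in replicate 1 than in the others at day 5. Ceacam10 (-3.73), the stefin-like 2010005H15Rik (-3.94), the granulocyte-progenitor gene Ms4a3 (-2.51), the protease inhibitor Serpinb1a (-2.06), the leukotriene receptor Ltb4r1 (-2.75) and Wfdc21 (-2.83) fell too. Ncf1 and Cybb, subunits of the phagocyte oxidase that macrophages share, also fell (-1.10 and -1.33). Not all S100 genes followed calprotectin: S100a4 rose by 2.45, and of 8 S100 genes 4 rose and 2 fell (3 rose and 3 fell after the scaling). A set of 12 neutrophil genes (S100a8, S100a9, 6 stefin genes, Ngp, Ltf, Camp and Lcn2) took 3.06% to 4.84% of the TPM at KO day 7 and 21.6% to 28.6% at KO day 5. Its part in the other results was not tested.

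Markers of other cells that such cultures hold were summed per library. Eosinophil genes summed to 120.0 to 368 TPM at KO day 7 and 833 to 1135 TPM at KO day 5, and of 9 tested 4 fell and 1 rose (0 rose and 4 fell of 8 tested after the scaling). The gene that rose was Ccr3, the eotaxin receptor, with 1.21, 1.08 and 1.11 TPM at KO day 7, against 0.36, 0.29 and 0.29 TPM at KO day 5 (0.70 ± 0.09, adjusted p = 1.82e-06). Prg2, the major basic protein, had 53.8, 23.6 and 24.5 TPM at KO day 7, against 521, 578 and 551 TPM at KO day 5 (-4.08 ± 0.51, adjusted p = 9.56e-07). Epx, eosinophil peroxidase, had 0.10, 0.030 and 0.12 TPM at KO day 7, against 15.8, 10.9 and 9.02 TPM at KO day 5. Ear6 fell (-3.63), and is a member of a family of near-identical ribonucleases whose reads may be shared. Mast cell and basophil genes summed to 354 to 746 TPM at KO day 7 and 711 to 930.1 TPM at KO day 5, and of 18 tested 6 fell and none rose (0 rose and 11 fell after the scaling). Hdc, the histamine-forming enzyme, had 16.6, 9.02 and 16.3 TPM at KO day 7, against 33.8, 31.9 and 40.7 TPM at KO day 5 (-1.32 ± 0.25, adjusted p = 0.000132). Megakaryocyte genes summed to 1914 to 2547 TPM at KO day 7 and 440.1 to 841 TPM at KO day 5, and of 20 tested 3 rose and 3 fell (2 rose and 6 fell after the scaling). The sum was led by Pf4, a platelet chemokine that macrophages also make, with 1726, 2212 and 2121 TPM at KO day 7, against 585, 265 and 340.2 TPM at KO day 5 (2.42 ± 0.31, adjusted p = 1.02e-06), while F2rl2, a platelet thrombin receptor, fell (-1.35). Stem and progenitor genes summed to 658 to 901 TPM at KO day 7 and 857 to 1017 TPM at KO day 5, and of 28 tested 12 fell and 3 rose (2 rose and 17 fell of 29 tested after the scaling). Prom1, a progenitor surface protein, had 2.60, 1.50 and 1.67 TPM at KO day 7, against 20.8, 21.9 and 20.7 TPM at KO day 5 (-2.94 ± 0.23, adjusted p = 1.53e-09). Erythroid genes summed to 194 to 229 TPM at KO day 7 and 166 to 189 TPM at KO day 5, and of 21 tested 2 rose and 2 fell (1 rose and 3 fell after the scaling). Genes of T, NK and innate lymphoid cells summed to 36.2 to 46.8 TPM at KO day 7 and 16.8 to 22.3 TPM at KO day 5. Most of the KO day 7 sum was Il7r, and of 6 genes tested 2 rose and 2 fell, also after the scaling. B- and plasma-cell genes summed to 25.3 to 28.9 TPM at KO day 7 and 4.59 to 4.98 TPM at KO day 5. Most of that KO day 7 sum was Blnk, and of 5 genes tested 1 rose and 0 fell (1 rose and 1 fell after the scaling). Stromal and endothelial genes summed to 12.7 to 20.3 TPM at KO day 7 and 17.8 to 45.4 TPM at KO day 5. Among the defining genes of these lists, Pax5 of B cells, Cd3e and Ncr1 of T and NK cells, Hbb-bs and Slc4a1 of erythroid cells and Col3a1 and Dcn of stroma were at 0 in all 6 libraries. Of 10 osteoclast genes 5 rose and 3 fell (4 rose and 4 fell after the scaling), beside 58.1% and 8.56% of all genes (26.9% and 24.1% after the scaling). The list as a whole was thus mixed, and the share that fell was above that of all genes on both scales. The 2 members given next are ones that rose. Tnfrsf11a, which encodes RANK, the receptor for the osteoclast cytokine, had 19.3, 17.5 and 15.3 TPM at KO day 7, against 0.68, 1.08 and 1.07 TPM at KO day 5 (3.24 ± 0.10, adjusted p = 5.13e-15), and Atp6v0d2, a proton-pump subunit of lysosomes and osteoclasts, had 167, 148 and 191 TPM at KO day 7, against 34.95, 27.7 and 30.5 TPM at KO day 5 (2.40 ± 0.26, adjusted p = 1.35e-07).

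The counts of cell-cycle genes depended on the scale used, as did those of all genes (58.1% higher and 8.56% lower, 26.9% and 24.1% after the scaling). Against these shares, fewer S-phase genes rose and more genes of G2 and mitosis fell on both scales. Of 43 genes of G2 and mitosis 2 rose and 8 fell on deposited TPM, but 0 rose and 32 fell after the scaling, and of 45 S-phase genes 17 rose and 1 fell, but 1 rose and 22 fell after the scaling. Mki67, a marker of cycling cells, had 68.1, 67.3 and 78.3 TPM at KO day 7, against 70.6, 76.7 and 89.8 TPM at KO day 5, overlapping between days (-0.14 ± 0.17, adjusted p = 0.47), and -0.58 (adjusted p = 0.00862) after the scaling. The mitotic genes Cks2 and Cdc20 were lower on both scales (-0.61 and -0.45, -1.04 and -0.88 after the scaling), and Pcna, the replication clamp, was higher on both (1.03 and 0.59). The D-type cyclins moved in opposite directions: Ccnd1, induced by M-CSF, had 129, 123 and 117 TPM at KO day 7, against 24.4, 27.1 and 25.6 TPM at KO day 5 (2.21 ± 0.15, adjusted p = 2.22e-10), whereas Ccnd3 had 66.4, 56.05 and 55.8 TPM at KO day 7, against 172, 172 and 169.6 TPM at KO day 5 (-1.52 ± 0.16, adjusted p = 1.09e-07). Cdkn1c, which encodes the CDK inhibitor p57, had 12.2, 18.4 and 20.5 TPM at KO day 7, against 0.23, 0.36 and 0.41 TPM at KO day 5 (3.73 ± 0.37, adjusted p = 4.23e-08). Myc fell to 36.2, 27.1 and 30.3 TPM at KO day 7, against 75.2, 53.6 and 56.1 TPM at KO day 5 (-0.95 ± 0.15, adjusted p = 1.89e-05).

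Among p53 targets, 19 of 30 rose and 3 fell (8 rose and 5 fell after the scaling), and in the BCL2 family 10 of 19 rose and 2 fell (4 rose and 3 fell after the scaling). Over all genes 58.1% rose and 8.56% fell (26.9% and 24.1% after the scaling), so the numbers that rose in both lists were near the background. Sesn1, a stress-induced regulator of mTORC1, had 41.02, 42.6 and 36.3 TPM at KO day 7, against 5.53, 6.56 and 6.41 TPM at KO day 5, a difference of 2.51 ± 0.18 (adjusted p = 3.77e-10). Gdf15, a secreted stress cytokine, had 162, 247 and 230.1 TPM at KO day 7, against 29.97, 40.2 and 37.5 TPM at KO day 5, a difference of 2.52 ± 0.24 (adjusted p = 2.4e-08). Plk2, a polo-like kinase, had 95.5, 129 and 123 TPM at KO day 7, against 21.3, 25.4 and 25.4 TPM at KO day 5, a difference of 2.21 ± 0.17 (adjusted p = 7.33e-10). The libraries of the 2 days did not overlap for these 3 genes. In the BCL2 family, Bcl2l1, which encodes the survival protein BCL-XL, had 68.3, 88.95 and 93.5 TPM at KO day 7, against 35.1, 40.8 and 41.6 TPM at KO day 5 (1.07 ± 0.14, adjusted p = 1.62e-06), and Bcl2a1a, a survival gene with close paralogs whose reads may be shared, had 15.1, 27.2 and 36.3 TPM at KO day 7, against 95.1, 87.2 and 79.05 TPM at KO day 5 (-1.78 ± 0.28, adjusted p = 1.81e-05). Slc7a5, an amino acid transporter, fell (-1.49).

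**Figure D4:**
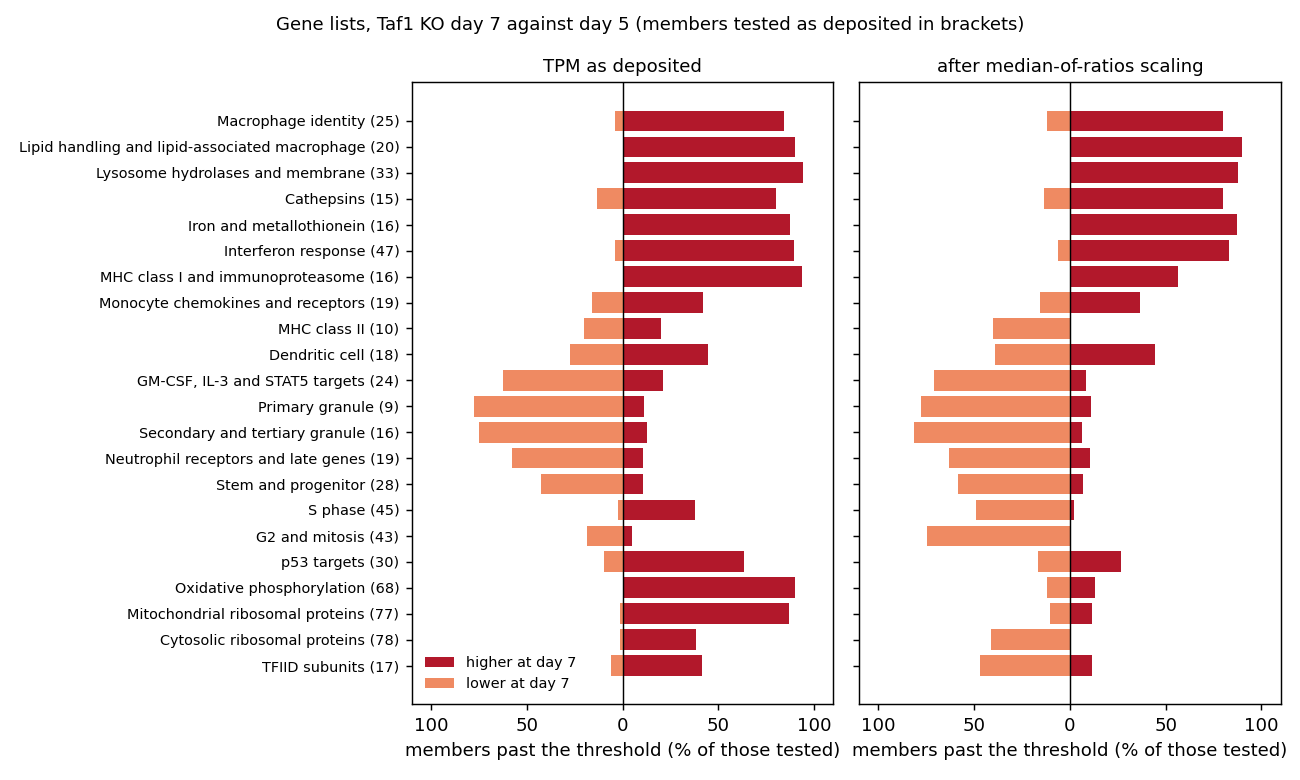
Share of tested members, in percent, higher (dark red, right) or lower (orange, left) at KO day 7 than at KO day 5 for 22 gene lists, on TPM as deposited (left panel) and after median-of-ratios scaling (right panel); the number tested as deposited stands in brackets. Macrophage, lipid, lysosome and iron lists point right and granule lists left in both panels, while ribosomal, oxidative phosphorylation and cell-cycle lists differ between the panels.

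Housekeeping groups moved about as far as the median of all genes. Of 68 oxidative phosphorylation genes 61 rose with a median of 0.43, of 77 mitochondrial ribosomal protein genes 67 rose (0.43), and of 31 proteasome genes 28 rose (0.41), against 0.37 over all genes. After the scaling 9, 9 and 4 rose and 8, 8 and 4 fell. The shares that rose were above the 58.1% of all genes on deposited values and below the 26.9% of all genes after the scaling. Examples with a rise on both scales were Sdha of complex II (0.99, 0.56 after the scaling) and Psmb6 of the proteasome (1.01, 0.57). Cytosolic ribosomal protein genes had a median of 0.21, below that of all genes, with 30 higher and 1 lower of 78 (0 rose and 32 fell after the scaling). Rplp1 had 2069, 2294 and 2245 TPM at KO day 7, against 1764, 1514 and 1513 TPM at KO day 5 (0.47 ± 0.11 (adjusted p = 0.000966), but 0.03 (adjusted p = 0.855) after the scaling).

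Within the machinery that Taf1 belongs to, 7 of 17 TFIID subunits tested rose and 1 fell (2 rose and 8 fell after the scaling). Among all genes 58.1% rose and 8.56% fell (26.9% and 24.1% after the scaling), so a smaller share of the subunits rose. Taf13, a histone-fold subunit, had 48.8, 51.7 and 58.95 TPM at KO day 7, against 27.7, 33.9 and 29.4 TPM at KO day 5 (0.79 ± 0.14, adjusted p = 3.96e-05), and Taf9b, a paralog of Taf9, had 5.59, 7.52 and 6.68 TPM at KO day 7, against 2.85, 3.07 and 3.10 TPM at KO day 5 (0.92 ± 0.16, adjusted p = 5.92e-05). These were the 2 subunits that also rose after the scaling (0.36 and 0.56). Of 30 general transcription and elongation factors 23 rose (2 rose and 5 fell after the scaling), with a median of 0.35 near that of all genes. TFIID binds the TATA box through TBP. Its motif TATAAA was searched at any position of the 250 upstream bases and on both strands, so a match need not be a TATA box. It was found for 9.31% of genes higher by at least 2-fold and 12.1% of those lower by at least 2-fold. The share was 7.6% of the genes tested (999, 239 and 9120 genes with an entry) and 14.3% of all 27025 genes with an entry. These shares are given with no test.

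Further genes were among the largest changes by the rule for named genes. Serpinb9b, a protease inhibitor of the ov-serpin family, had 39.2, 60.6 and 92.9 TPM at KO day 7, against 0.60, 1.09 and 1.82 TPM at KO day 5 (4.86 ± 0.23, adjusted p = 1.42e-12). Serpinb6b, of the same family, had 86.3, 72.99 and 69.2 TPM at KO day 7, against 1.94, 2.66 and 2.61 TPM at KO day 5 (4.50 ± 0.19, adjusted p = 2.64e-13). Sepp1, the selenium carrier selenoprotein P, had 593, 419 and 362 TPM at KO day 7, against 27.2, 22.2 and 20.1 TPM at KO day 5 (4.22 ± 0.18, adjusted p = 5.06e-13), and Igf1, insulin-like growth factor 1, had 74.00, 54.8 and 74.4 TPM at KO day 7, against 3.84, 1.68 and 2.77 TPM at KO day 5 (4.22 ± 0.21, adjusted p = 2.69e-12). Each was low in all day 5 libraries. Npy, neuropeptide Y, had 527, 742 and 722 TPM at KO day 7, against 30.3, 39.9 and 44.01 TPM at KO day 5 (4.09 ± 0.18, adjusted p = 4.5e-13), and the peripheral myelin protein gene Pmp22 had 83.3, 105 and 96.9 TPM at KO day 7, against 3.20, 5.37 and 4.29 TPM at KO day 5 (4.20 ± 0.22, adjusted p = 5.6e-12). Slc37a2, a sugar-phosphate exchanger of macrophages, rose by 3.85 and Cd300lh by 4.37. On the other side, Car4, a membrane carbonic anhydrase, had 0.48, 0.65 and 0.80 TPM at KO day 7, against 51.8, 20.8 and 18.9 TPM at KO day 5 (-4.12 ± 0.50, adjusted p = 6.27e-07), and Snai3, a Snail-family repressor, had 0.22, 0.44 and 0.43 TPM at KO day 7, against 26.1, 18.00 and 17.2 TPM at KO day 5 (-3.96 ± 0.18, adjusted p = 1.15e-12). The small nucleolar RNA Snora34 was listed at 0 in all KO day 7 libraries, against 9.78, 9.52 and 22.4 TPM at KO day 5, and no fold is given. Of 19 coagulation and proteolysis genes 7 rose and 6 fell (6 rose and 7 fell after the scaling), and of 22 integrin and adhesion genes 11 rose and 5 fell (9 rose and 8 fell after the scaling), beside 58.1% higher and 8.56% lower of all genes. Matrix, protease, adhesion and cytoskeletal genes that rose were Timp2 (2.35), Plau (2.19), Mmp19 (2.27), the integrin chains Itgb5 (2.66) and Itgav (2.19), Lgals1 (2.33) and Vim (1.31).

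The same step in control cells was used to ask which of these changes differed by genotype. In controls 2740 genes were higher at day 7 (22.9%) and 1937 lower (16.2%), with a median of 0.04. The change in knockout minus that in control passed for 4096 genes as more positive (34.3%) and 165 as more negative (1.38%), with a median of 0.34, and for 468 (3.93%) and 478 (4.01%), together 7.95%, after the scaling. Of the genes called in the knockout, 2633 rose in both genotypes, 802 fell in both, 130 rose in knockout and fell in control, and 1 fell in knockout and rose in control. Csf1r rose in both: it had 178, 186 and 249 TPM at control day 7, against 30.03, 30.6 and 32.9 TPM at control day 5, and the change was 2.78 in knockout beside 2.66 in control, and the difference of 0.13 ± 0.16 (adjusted p = 0.526) did not pass. The count of differing genes moved when single libraries were left out, to 2627 genes in total without KO day 7 replicate 3, 2676 without KO day 7 replicate 2, 2697 without control day 7 replicate 1 and 5007 without control day 7 replicate 3. The numbers more negative in knockout were 93 without KO day 7 replicate 2 or 3 or control day 7 replicate 1, 89 without control day 7 replicate 2 and 254 without control day 7 replicate 3.

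Interferon-response genes changed more positively in knockout than in control. The change was more positive in knockout for 40 of 47 genes and more negative for none (34.3% of all genes more positive), and for 23 and none after the scaling (3.93% of all genes). In control, Ifit3 had 0.99, 0.97 and 1.42 TPM at control day 7, against 0.19, 0.17 and 0.49 TPM at control day 5, and the change was more positive in knockout by 2.98 ± 0.26 (adjusted p = 8.45e-07). Ifit3b had 0.19, 0.15 and 0.22 TPM at control day 7, against 0, 0.020 and 0.11 TPM at control day 5 (2.57 ± 0.24, adjusted p = 1.05e-06). For both genes, every control library was below every KO day 7 library. For MHC class I the corresponding numbers were 8 of 16, and 0 after the scaling.

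**Figure D5:**
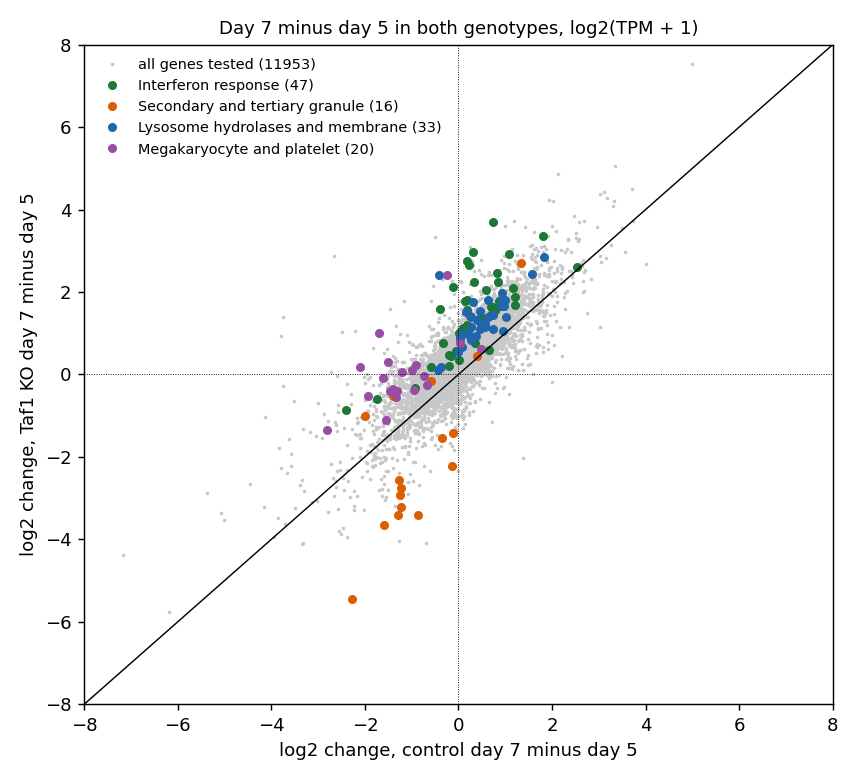
Log2 difference, day 7 minus day 5, in Taf1 KO cells (vertical axis) against control cells (horizontal axis) for 11953 genes (grey), with 4 gene lists coloured and the line of equal change in black. Of the interferon-response genes (green) 40 of 47 passed as lying above the line of equal change, beside 34.3% of all genes. So did 13 of 20 megakaryocyte genes (purple), and 2 of 20 after the scaling. Within the knockout 3 of these 20 rose and 3 fell, whereas in control 1 rose and 17 fell. Of the secondary granule genes (orange) 5 of 16 passed as lying below the line, beside 1.38% of all genes.

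Several macrophage genes rose further in knockout, beside lower values at KO day 5 than at control day 5. Of 25 macrophage identity genes tested, 11 changed more positively in knockout and 2 more negatively (7 and 2 after the scaling). Of 33 lysosomal genes the numbers were 30 and 0 (5 and 0 after the scaling), and of 20 lipid-handling genes 15 and 0 (3 and 0). Among all genes 34.3% changed more positively and 1.38% more negatively (3.93% and 4.01% after the scaling). Adgre1 had 256, 263 and 356 TPM at control day 7, against 171, 135 and 134 TPM at control day 5, and the change differed by 1.61 ± 0.22 (adjusted p = 9.29e-05). Mertk had 9.96, 10.4 and 17.5 TPM at control day 7, against 11.1, 8.63 and 9.20 TPM at control day 5, a difference of 2.34 ± 0.24 (adjusted p = 5.1e-06). Ctsl had 1537, 1466 and 1353 TPM at control day 7, against 1671, 1012 and 989 TPM at control day 5, a difference of 2.47 ± 0.30 (adjusted p = 2.57e-05). For Adgre1, Mertk, Ctsl and Gpnmb each KO day 5 library was below each control day 5 library. Gpnmb had 1932, 2023 and 3819 TPM at control day 7, against 1019.8, 881 and 879.6 TPM at control day 5, a difference of 2.17 ± 0.37 (adjusted p = 0.00063). Sepp1 (2.29 ± 0.26, adjusted p = 1.58e-05), Serpinb9b (2.74 ± 0.32, adjusted p = 2.08e-05), Gdf15 (2.08 ± 0.34, adjusted p = 0.000531), Mrc1 (1.98 ± 0.36, adjusted p = 0.00122), Atp6v0d2 (2.81 ± 0.37, adjusted p = 7.34e-05) and Pf4 (2.66 ± 0.43, adjusted p = 0.000497) also changed more positively in knockout. So did Mmp19, a matrix protease (2.41 ± 0.31, adjusted p = 5.78e-05). Ednrb, the endothelin B receptor, had 9.07, 11.9 and 18.7 TPM at KO day 7, against 0.30, 0.87 and 0.71 TPM at KO day 5. In control it had 1.58, 1.71 and 2.01 TPM at control day 7, against 1.68, 0.97 and 1.40 TPM at control day 5 (2.84 ± 0.26, adjusted p = 8.45e-07). Of 30 p53 targets 18 changed more positively in knockout and 3 after the scaling, beside 34.3% and 3.93% of all genes. Axl went the other way, with 9.36, 11.1 and 14.6 TPM at control day 7, against 4.84, 5.43 and 5.90 TPM at control day 5, a difference between the genotypes of -1.29 ± 0.25 (adjusted p = 0.00178).

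Chemokine and cytokine-receptor genes differed by genotype as well. Ccl17 had 0.17, 0.51 and 0 TPM at control day 7, against 203, 174 and 145 TPM at control day 5, with 1 library listed at 0. Its change was -4.39 in knockout beside -7.17 in control, a difference of 2.78 ± 0.50 (adjusted p = 0.00105), so it fell in both genotypes and further in control. Csf2rb had 90.7, 85.1 and 74.7 TPM at control day 7, against 179, 162 and 181 TPM at control day 5 (1.60 ± 0.36, adjusted p = 0.00371). Ccl12, a monocyte chemokine, had 209, 297 and 319 TPM at KO day 7, against 112, 137 and 153 TPM at KO day 5. In control it had 6.87, 7.29 and 48.1 TPM at control day 7, against 58.2, 102 and 91.97 TPM at control day 5 (3.51 ± 0.67, adjusted p = 0.00147), with replicate 3 the highest control day 7 library. Slc39a2, a zinc transporter, had 0.080, 1.51 and 1.60 TPM at KO day 7, against 1.09, 3.10 and 2.20 TPM at KO day 5. In control it had 0.70, 0.45 and 2.28 TPM at control day 7, against 21.4, 23.1 and 21.1 TPM at control day 5 (2.86 ± 0.40, adjusted p = 0.000134), so the control day 5 libraries stood apart. Amd2, an S-adenosylmethionine decarboxylase gene with close paralogs, had 31.96, 9.59 and 13.6 TPM at KO day 7, against 2.76, 0.18 and 1.85 TPM at KO day 5. In control it had 1.03, 2.94 and 1.28 TPM at control day 7, against 14.1, 10.9 and 24.1 TPM at control day 5 (5.54 ± 1.25, adjusted p = 0.00407). Of 24 GM-CSF, IL-3 and STAT5 targets 10 changed more positively in knockout and none more negatively, and 3 after the scaling, beside 34.3% and 3.93% of all genes.

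Some neutrophil genes changed more negatively in knockout. Cd177 had 135, 145 and 61.6 TPM at control day 7, against 429, 582 and 565 TPM at control day 5 (-3.17 ± 0.75, adjusted p = 0.00501). Ifitm6 had 182, 195 and 73.9 TPM at control day 7, against 216, 422 and 405 TPM at control day 5 (-2.77 ± 0.56, adjusted p = 0.00224). Olfm4 had 35.2, 36.1 and 19.8 TPM at control day 7, against 68.2, 105 and 106 TPM at control day 5 (-2.04 ± 0.53, adjusted p = 0.00844). Control day 7 replicate 3 was the lowest of its group for each. S100a8 had 34381, 32133 and 17217 TPM at control day 7, against 19108, 74853 and 76899 TPM at control day 5 (-1.84 ± 0.65, adjusted p = 0.0341), with control day 5 replicate 1 below the other day 5 libraries. Cebpe had 75.8, 82.4 and 31.4 TPM at control day 7, against 109.7, 203 and 207 TPM at control day 5 (-1.31 ± 0.42, adjusted p = 0.0229). These last 2 did not pass when single libraries were left out (S100a8 adjusted p of 0.0625 to 0.0901, Cebpe 0.0589 to 0.0683), among them KO day 7 replicates 2 and 3, control day 7 replicates 1 and 2 and control day 5 replicate 1, and for S100a8 also KO day 5 replicates 2 and 3. Tnip3, an inhibitor of NF-κB signalling, had 12.7, 7.41 and 7.28 TPM at KO day 7, against 3.59, 3.04 and 3.80 TPM at KO day 5. In control it had 34.6, 33.2 and 19.8 TPM at control day 7, against 2.84, 2.52 and 2.49 TPM at control day 5 (-1.88 ± 0.27, adjusted p = 0.000154). Of 16 secondary and tertiary granule genes 5 changed more negatively in knockout (1.38% of all genes) and 2 more positively, and 4 and 0 after the scaling. Without replicate 1 on both knockout days 9 changed more negatively and 3 more positively. Of 9 primary granule genes none changed more negatively and 1 more positively, and of 19 neutrophil receptors and late genes 4 changed more negatively and 3 more positively (3 and 1 after the scaling).

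The granulocyte culture of knockout cells was used to ask which changes differed by culture. Of 11553 genes tested the macrophage change exceeded the granulocyte change for 3923 (34%) and was below it for 770 (6.66%), together 40.6%, and for 12.1% and 14.3% after the scaling. Csf1r had 131, 132 and 130.3 TPM at day 7 of the KO granulocyte culture, against 42.4, 32.8 and 32.8 TPM at its day 5, and its change was larger in the macrophage culture (0.94 ± 0.19, adjusted p = 0.000849). Apoe had 207, 63.6 and 58.1 TPM at day 7 of the KO granulocyte culture, against 5.24, 1.81 and 1.51 TPM at its day 5 (2.83 ± 0.62, adjusted p = 0.00157). Gas6 had 9.55, 4.72 and 5.00 TPM at day 7 of the KO granulocyte culture, against 0.53, 0.27 and 0.23 TPM at its day 5 (2.64 ± 0.60, adjusted p = 0.00206). For these 3 genes all day 7 libraries were also above all day 5 libraries in the granulocyte culture. Pmp22 had 6.90, 5.85 and 5.47 TPM at day 7 of the KO granulocyte culture, against 1.02, 0.93 and 0.51 TPM at its day 5 (2.23 ± 0.46, adjusted p = 0.000983), and Hmga2, a chromatin architecture gene of growing cells, had 3.17, 6.28 and 5.57 TPM at KO day 7, against 0.090, 0.14 and 0.20 TPM at KO day 5. In the granulocyte culture it had 0.24, 0.050 and 0.29 TPM at day 7 of the KO granulocyte culture, against 0.63, 1.12 and 1.06 TPM at its day 5 (3.05 ± 0.27, adjusted p = 4.94e-07), with the order of the days reversed. Ifit3 had 1.09, 0.14 and 0.46 TPM at day 7 of the KO granulocyte culture, against 0.070, 0.11 and 0.050 TPM at its day 5 (3.21 ± 0.41, adjusted p = 1.77e-05), and of 45 interferon-response genes 28 changed more positively in the macrophage culture and 2 more negatively, and 19 and 4 after the scaling.

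Several genes of the neutrophil branch changed more negatively in the macrophage culture. The stefin-like 2010005H15Rik had 39.6, 38.3 and 28.98 TPM at KO day 7, against 505, 616 and 558 TPM at KO day 5. In the granulocyte culture it had 687, 797 and 735 TPM at day 7 of the KO granulocyte culture, against 152, 193 and 188 TPM at its day 5 (-6.00 ± 0.66, adjusted p = 4.32e-06). Stfa2, a stefin of neutrophils, had 776, 376 and 256 TPM at KO day 7, against 2131, 2889 and 2618 TPM at KO day 5. In the granulocyte culture it had 5979.6, 6759 and 5534 TPM at day 7 of the KO granulocyte culture, against 1842, 2638 and 2593 TPM at its day 5 (-3.96 ± 0.77, adjusted p = 0.000642). For both stefins the days were in opposite order in the 2 cultures, with no overlap. Cxcl3, a neutrophil-attracting chemokine, had 4.40, 12.2 and 14.6 TPM at KO day 7, against 49.6, 50.6 and 45.6 TPM at KO day 5. In the granulocyte culture it had 81.2, 80.6 and 59.9 TPM at day 7 of the KO granulocyte culture, against 10.5, 22.8 and 22.4 TPM at its day 5 (-4.26 ± 0.71, adjusted p = 0.000201). Cxcl2, its close relative, had 27.8, 11.7 and 11.5 TPM at KO day 7, against 57.2, 55.7 and 51.6 TPM at KO day 5. In the granulocyte culture it had 236, 137 and 119 TPM at day 7 of the KO granulocyte culture, against 26.4, 39.9 and 39.7 TPM at its day 5 (-3.90 ± 0.95, adjusted p = 0.00357), again in opposite order without overlap for both chemokines. Cd177 had 119.9, 78.8 and 71.4 TPM at day 7 of the KO granulocyte culture, against 339.6, 378 and 368 TPM at its day 5 (-3.42 ± 0.53, adjusted p = 0.000112). Ltb4r1 had 98.5, 108 and 114 TPM at day 7 of the KO granulocyte culture, against 83.7, 87.2 and 87.6 TPM at its day 5 (-3.06 ± 0.44, adjusted p = 6.52e-05). Lipg had 83.4, 42.4 and 35.03 TPM at day 7 of the KO granulocyte culture, against 322, 279 and 298 TPM at its day 5 (-3.21 ± 0.51, adjusted p = 0.000141). Of 19 neutrophil receptors and late genes 15 changed more negatively in the macrophage culture (6.66% of all genes) and none more positively, with the same numbers after the scaling.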

How the data were processed

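Stranded RNA-seq libraries were made from total RNA, and the authors deposited 1 table of TPM values per culture, with 24411 genes each, from reads processed with the mm10 build and RSEM (version not given) per the submitters' processing notes, which also name DESeq2 1.38.3. TPM keeps no depth, so the depth of each library is unknown and counting error could not be given. Groups were taken from the sample labels. Genes had to reach 1 TPM in 3 or more libraries. Their log2(TPM + 1) values were analysed in limma (version 3.58.1, under R 4.3.3) with a coefficient for each group, a variance trend and Benjamini-Hochberg adjustment over all genes tested (threshold 0.05). The 24 macrophage-table libraries gave the day 7 against day 5 contrast in each genotype and their difference, and the 24 day 5 and day 7 libraries of both cultures gave the contrast of cultures. The script was tested on simulated data. The members and all 59 gene lists (1311 symbols, 24 not matched to the table) were chosen with earlier results of these data known. Lists are described by counts and medians with no test.

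Genes named by value were Taf1, a fixed set of lineage genes, the 12 largest rises and 12 largest falls (at least 5 TPM in the higher group, libraries not overlapping), the 8 largest in each direction of the genotype difference, the 5 largest of the culture difference, and up to 4 per list with the smallest p. Pparg, C3, Ctsc, Ctsg, Zbp1, Slfn1 and Anxa1 were named after their values were seen. Some genes that these rules name are not reported here. Gene coordinates are GENCODE M21 (mm10). Promoter windows are the 250 bases before each start in RefSeq on GRCm38.p6, matched by symbol for 9120 of 11953 genes tested. There were 32851 windows for 27025 genes, and a gene counted for a motif if any of its windows held it. Each printed window is from a single start of its gene.

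In the knockout macrophage libraries deviations from the group means correlated between same-numbered day 7 and day 5 libraries with r of 0.441, 0.206 and 0.177 across genes for replicates 1, 2 and 3, so by the rule of r over 0.1 in every pair the numbers were read as pairing these libraries. Replicates 2 and 3 correlated as well or better crossed (0.312 for day 7 replicate 2 with day 5 replicate 3, 0.222 for day 7 replicate 3 with day 5 replicate 2). Deviations within a group of 3 sum to 0 for each gene. A shared deviation of replicate 1 therefore makes r positive on average among replicates 2 and 3, matched or crossed. The rule cannot decide the pairing of these 2 numbers, which is uncertain. Alternatives were other pseudocounts and filters, another scaling, dominant genes left out, fewer groups fitted, the replicate number as a block, and single libraries left out. The day 0 and day 3 libraries entered only the shared estimate of spread, and the control granulocyte libraries only that of the culture contrast.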

Additional observations from a re-analysis of the deposited data

Results flagged for a closer look

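Genes named in the text whose day 5 to day 7 change differed between Taf1 KO and control cells by limma's test of the difference are given with the log2 difference, knockout change minus control change. Among chemokine, cytokine-receptor, transporter and polyamine-synthesis genes it was 3.51 for Ccl12, 2.78 for Ccl17, 1.60 for Csf2rb, 2.86 for Slc39a2 and 5.54 for Amd2, the last from a family with close paralogs. Among macrophage and lysosomal genes it was 2.34 for Mertk, 1.61 for Adgre1, 1.98 for Mrc1, 2.47 for Ctsl, 2.81 for Atp6v0d2, 2.17 for Gpnmb and 2.41 for Mmp19. Further positive values were 2.98 for Ifit3, 2.57 for Ifit3b, 2.84 for Ednrb, 2.66 for Pf4, 2.29 for Sepp1, 2.74 for Serpinb9b and 2.08 for Gdf15. Negative values were -3.17 for Cd177, -2.77 for Ifitm6, -2.04 for Olfm4, -1.84 for S100a8, -1.31 for Cebpe, -1.88 for Tnip3 and -1.29 for Axl.

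Genes whose change differed between the macrophage and granulocyte cultures of Taf1 KO cells, by the test of that difference, are given as macrophage change minus granulocyte change. Positive log2 values were 3.21 for Ifit3, 3.05 for Hmga2, 2.64 for Gas6, 2.83 for Apoe, 2.23 for Pmp22 and 0.94 for Csf1r. Negative values were -6.00 for 2010005H15Rik, -4.26 for Cxcl3, -3.90 for Cxcl2, -3.96 for Stfa2, -3.42 for Cd177, -3.21 for Lipg and -3.06 for Ltb4r1. These genes were chosen for their size of difference or their list, and the values are not independent of that choice.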

How the results depend on the processing

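The scaling of the libraries and the leaving out of dominant genes moved the counts. For knockout day 7 against day 5 it left 3206 genes higher and 2872 lower, and leaving out S100a8, S100a9, Rpph1, Rmrp and the histone genes left 3201 and 2605. For the knockout change minus the control change the scaling left 946 genes (468 more positive, 478 more negative), and leaving out the dominant genes left 788 (569 more positive). For the macrophage change minus the granulocyte change the scaling left 3041 (1393 and 1648), and leaving out the dominant genes left 2385 more positive and 1174 more negative. With only the groups of a contrast fitted, 2756 genes passed in control (1634 higher, 1122 lower) and 101 were more negative in the genotype difference. For the counts that moved, the cause was not tested. Taf1, at 0.20 in the knockout step, was at -0.18 (adjusted p = 0.0216 by limma) after the scaling and -0.18 (adjusted p = 0.0756) without the dominant genes. The genotype difference of Csf1r, at 0.13, was -0.28 after the scaling and -0.22 without those genes.

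Leaving out single libraries gave 7092 to 7875 genes for the knockout step (6183 to 6916 higher, 886 to 971 lower) and 3657 to 4822 for the control step (2064 to 3077 higher, 1593 to 2062 lower). It gave 2627 to 5007 for the genotype difference (2534 to 4753 more positive, 89 to 254 more negative) and 3810 to 4769 for the culture difference (3156 to 4060 and 623 to 982). With the replicate number as a block, 7926 genes passed in the knockout step (6881 higher, 1045 lower), 4585 in control, 3883 in the genotype difference and 5379 in the culture difference. The block changed the call of Csf2rb, given in the report, and of no other gene named by value. Same-numbered control libraries correlated with r of 0.0925, 0.013 and -0.000114, so there the numbers were not read as pairs. Without knockout replicate 1 on both days, an alternative chosen after seeing the data, 4321 genes passed in the genotype difference and 4315 in the culture difference. Of 126 genes named for the knockout step, 117 kept direction and call under all alternatives run, as did 24 of 27 for the genotype difference and 13 of 13 for the culture difference. Apart from Taf1 and the fixed set, named genes were picked from these same libraries by size of change or smallest p. That choice favours stable calls, so these numbers do not describe genes at large. The precision set by sequencing depth is unknown.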
